A study of Rattus norvegicus with 12 samples.

Results

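A list of 10 genes that bear on whether a cell leaves G1, the phase before DNA synthesis, was followed in rat aorta and semilunar valve. They are Cbx7, Cdkn2b, Cdkn2c, Cdkn1a, Cdkn1b, Ccnd1, Ccnd2, Ccnd3, Myb and Btg2. Their probe sets were taken by the 1 symbol that the array annotation gives, which found 14 probe sets of 9 genes, among 14217 genes with such a probe set in the whole table. No probe set carried the symbol Btg2 alone, and this gene, an antiproliferative BTG/TOB protein, was not analysed here. RNA came from Wistar rats in 4 groups of 3 arrays each: adult semilunar valve, neonatal semilunar valve, adult aorta and neonatal aorta. Aorta means its proximal part, valve means aortic and pulmonary valves together, the newborn tissue was taken within 24 h of birth, and the adults are labelled male with no age given. No group carried a transgene or a treatment. The 4 comparisons ask how expression differs with age in each tissue and with tissue at each age, and another asks whether the tissues differ in their age difference.

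As background, D-type cyclins bind the kinases Cdk4 and Cdk6 and start the phosphorylation of the retinoblastoma protein, which holds back the E2F transcription factors and with them the genes of DNA synthesis. INK4 inhibitors (Cdkn2b and Cdkn2c here) occupy Cdk4 and Cdk6, and Cip/Kip inhibitors (Cdkn1a, which p53 induces, and Cdkn1b, which is high in resting cells) bind cyclin and kinase complexes. Cbx7 is a chromodomain subunit of Polycomb repressive complex 1, which silences the Cdkn2a locus. Myb is a transcription factor of immature blood cells, and vascular smooth muscle cells in culture also use it to enter S phase. Heart and vessel cells divide in the newborn and rest for the most part in the adult.

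The promoters of Cbx7 and Ccnd3 are printed because these genes moved in opposite directions with age, Cbx7 upward in both tissues and Ccnd3 downward in the aorta. Each sequence runs from 250 bases before the transcription start to 50 after it (RefSeq, assembly GRCr8), with motif matches on either strand in capitals. The Cbx7 promoter is chr7:113358297-113358596 and the Ccnd3 promoter is chr9:20897826-20898125, both on the minus strand.
Cbx7: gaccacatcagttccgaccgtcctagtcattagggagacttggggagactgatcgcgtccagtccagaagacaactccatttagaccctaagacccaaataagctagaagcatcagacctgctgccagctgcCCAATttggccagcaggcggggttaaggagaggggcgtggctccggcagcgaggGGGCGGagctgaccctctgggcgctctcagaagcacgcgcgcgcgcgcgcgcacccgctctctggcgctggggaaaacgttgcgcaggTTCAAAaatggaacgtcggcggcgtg
Ccnd3: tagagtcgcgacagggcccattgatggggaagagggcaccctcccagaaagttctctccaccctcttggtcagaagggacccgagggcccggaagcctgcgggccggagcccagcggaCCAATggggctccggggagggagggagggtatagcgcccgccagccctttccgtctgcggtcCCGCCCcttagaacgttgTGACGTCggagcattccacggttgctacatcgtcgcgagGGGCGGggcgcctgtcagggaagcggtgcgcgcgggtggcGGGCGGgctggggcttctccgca

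Both promoters hold the CCAAT box (CCAAT), at base 133 of Cbx7 and base 119 of Ccnd3, and the GC box (GGGCGG), at base 187 of Cbx7 and bases 181, 238 and 278 of Ccnd3. Over all 27457 promoters of this length, 37.7% hold a CCAAT box and 34.9% a GC box. Cbx7 also holds the cell cycle homology region (TTTGAA, read on the other strand, from base 275), as do 18.1% of all promoters. In Ccnd3 the 7-base cyclic AMP response element (TGACGTC) lies at base 199, and 3.34% of all promoters hold it. Of the 7 listed genes with a promoter in the table (Cbx7, Cdkn2b, Cdkn2c, Cdkn1a, Cdkn1b, Ccnd3 and Btg2), only Cdkn2c holds the E2F site searched (GCGGGAA, from base 258), which 4.47% of all promoters hold. The E box (CACGTG) matched in 0 of the 7 and in 6.65% of all promoters. Such a match describes the letters and is no evidence of binding.

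Several facts of the arrays bear on what follows. In 6 samples the labels conflict: the tissue entry says neonatal valve for the 3 arrays titled adult aorta, and adult aorta for the 3 arrays titled neonatal valve. Titles match the source names, and the groups used here are those of the titles. Under the other reading each age comparison becomes a tissue comparison with the same values. Xist, expressed from the inactive X chromosome of female cells, read 12355 to 18362 on adult valve, 10998 to 15809 on neonatal valve, 15.9 to 25.2 on adult aorta and 5.08 to 297 on neonatal aorta arrays, so tissue and sex of the animals cannot be told apart, and the adult valve arrays go against the label male. The 3′ to 5′ signal ratio of beta-actin, a measure of RNA integrity and labelling, averaged 9.92 (geometric mean) over the 6 valve arrays and 1.66 over the 6 aorta arrays (two-sided exact permutation test, p = 0.0022, which is the smallest possible). Neonatal aorta 2 and 3 lacked the added bacterial control RNAs, whose 3′ probe sets read 5.82 to 54.6 there, and a signal up to 54.6 is called the level of an absent RNA below. The skeletal muscle list had a median log2 signal of 14.7 on adult aorta 1, against 7.31 and 7.50 on the other adult aorta arrays, and the squamous epithelium list 13.3, against 6.71 and 6.78. On neonatal aorta 2 these lists stood at 11.7 and 11.8. The labels do not say whether the arrays within a group hold RNA of separate animals, and p-values measure only the spread between these samples. In bulk tissue, fewer cells of a type and less RNA per cell cannot be told apart.

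Of the 14 probe sets, 11 of 8 genes were bright enough to be tested (a signal above 172, the median of all values, on at least 3 arrays). In the aorta 1 of these was higher in the adult (Cbx7) and 1 lower (Ccnd3), at a Benjamini-Hochberg adjusted p under 0.05 in limma, where 7.33% of all probe sets tested were called (1.94% higher, 5.39% lower). In the valve 1 was higher in the adult (Cbx7) and 1 lower (Myb), where 9.22% of all were called (4.00% higher, 5.21% lower). Between newborn tissues Cbx7 and Myb were higher in valve, with 32.6% of all called (13.3% higher, 19.3% lower). Between adult tissues 2 probe sets of Ccnd1 were higher in valve and 1 of Cdkn2c lower, with 37.2% of all called (17.3% higher, 19.9% lower). None of the 11 passed for the difference between the age differences (3 at an unadjusted p under 0.05), and 0.0594% of all did (0.0486% higher, 0.0108% lower). Adult and neonatal arrays did not overlap for 6 of the 11 in the aorta and 5 in the valve, where the shares over all probe sets were 30.9% and 33.4%. Valve and aorta arrays did not overlap for 4 of the 11 in newborns and for 4 in adults, where the shares over all were 59.7% and 44.3%. These counts over 11 probe sets, 3 of them of Ccnd1, are a description, and nothing particular to these genes is read from them. Myb passed the brightness filter only through the neonatal valve arrays, and a Cdkn2c probe set only through the adult aorta arrays. Both were thus tested only through the group where they are high, and their calls are counted here as a description that supports nothing.

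**Figure D1:**
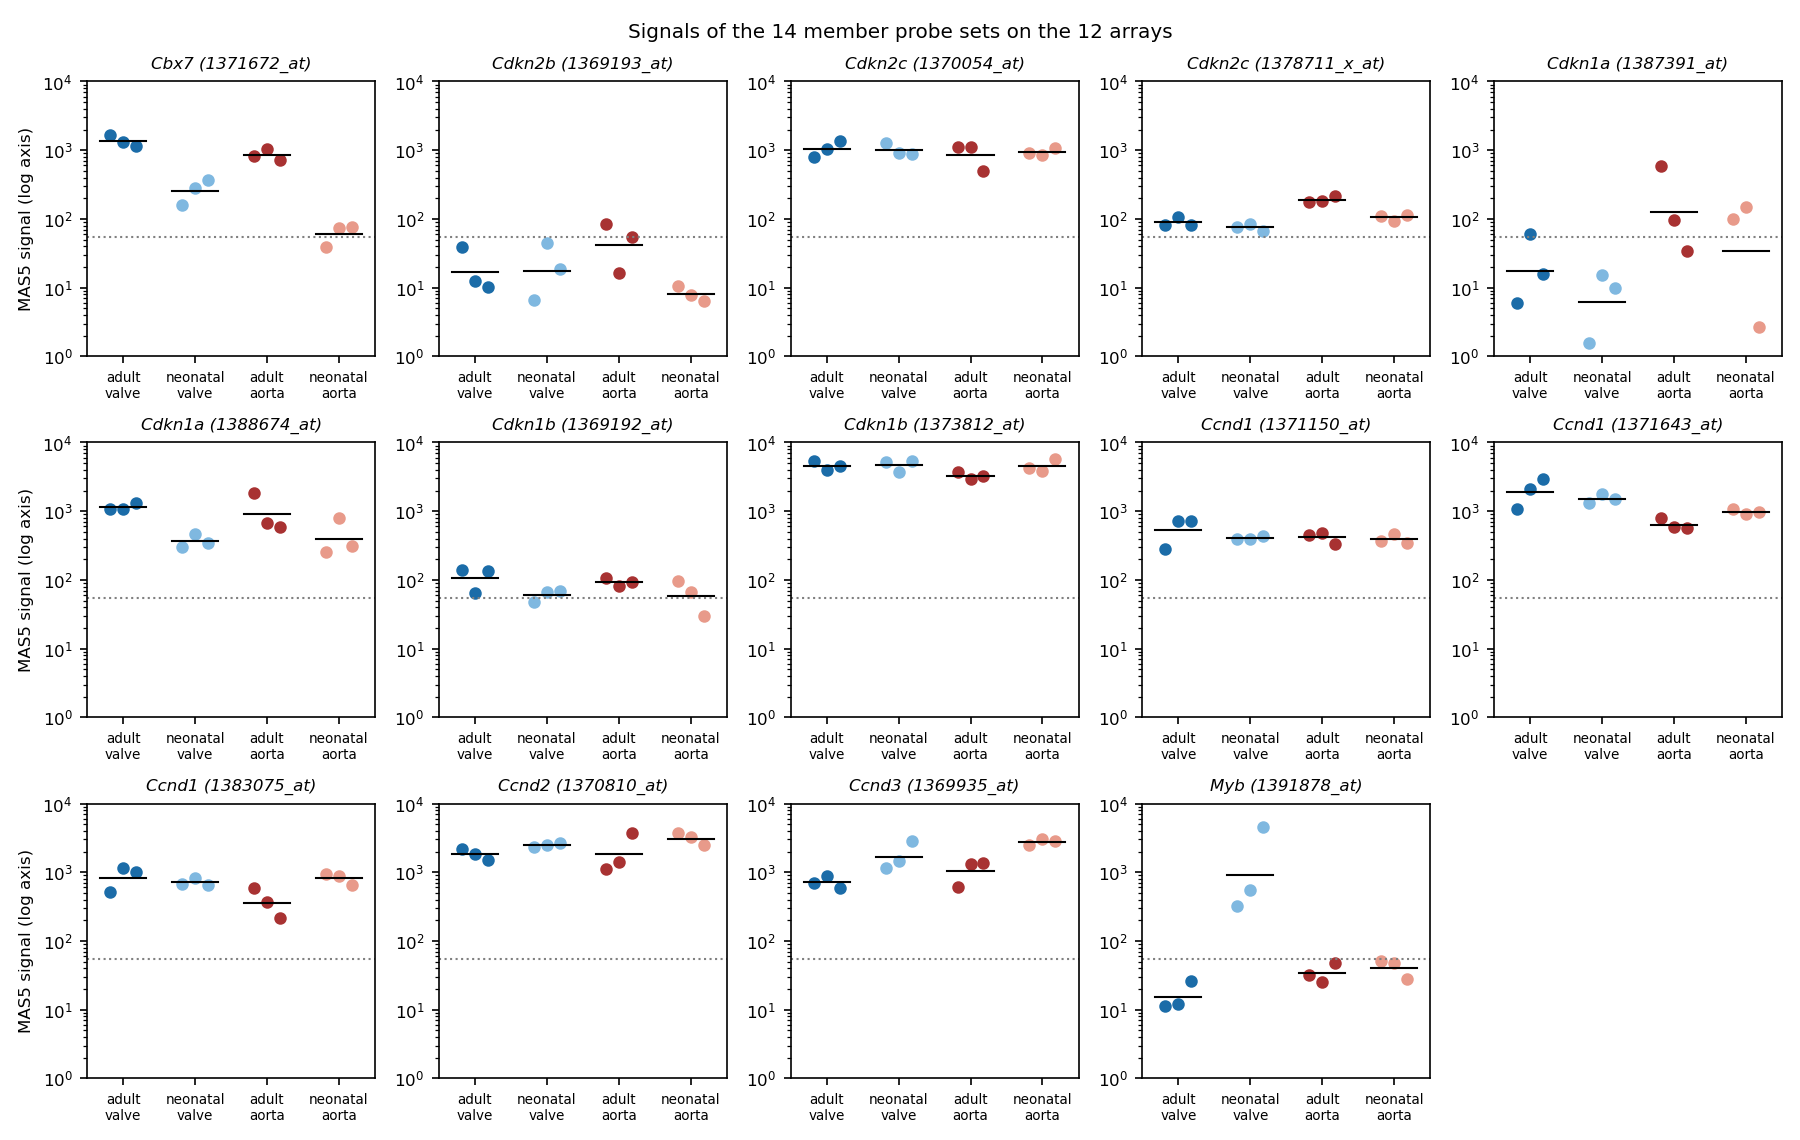
Each panel shows 1 probe set, with the MAS5 signal (log axis) of each array as a point, the 4 groups along the x axis, a bar at the geometric mean of the 3 arrays and a dotted line at 54.6, the highest signal of an absent control RNA. Adult arrays of Cbx7 lie above neonatal ones in both tissues, Ccnd3 shows the opposite order, and Myb rises above the dotted line on the neonatal valve arrays only.

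Cbx7 was the only gene followed whose age difference passed in both tissues. Its probe set (1371672_at) read 1657, 1327 and 1156 on adult valve arrays, against 157, 284 and 372 on neonatal valve arrays. In the aorta it read 835, 1050 and 722 in the adult and 39.2, 72.6 and 76.5 in the newborn. No adult array overlapped a neonatal one in either tissue, and 1 of the neonatal aorta arrays was at the level of an absent RNA. Cbx7 rose 14.3-fold in adult aorta (log2 difference 3.84 ± 0.35 SE, adjusted p = 0.00034) and 5.36-fold in adult valve (2.42 ± 0.35, adjusted p = 0.0028). The aorta fold rests on newborn signals close to the level of an absent RNA, so its size is uncertain. Both calls held under every alternative tried, at log2 differences of 3.26 to 4.71 in the aorta and 2.07 to 2.69 in the valve.

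The level of Cbx7 was highest in adult valve, then in adult aorta, neonatal valve and neonatal aorta. Neonatal valve stood 4.23-fold above neonatal aorta (log2 difference 2.08 ± 0.35, adjusted p = 0.0015), and this call too held under every alternative (1.63 to 2.95). Adult valve arrays all lay above adult aorta arrays, but the difference of 0.67 ± 0.35 did not pass (adjusted p = 0.16, unadjusted 95% interval -0.11 to 1.45). Subtracting the aorta age difference from the valve one gave -1.41 ± 0.50, which missed the threshold over all probe sets (adjusted p = 0.31). The age difference was therefore not shown to differ between the tissues.

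Of the INK4 inhibitors, Cdkn2b (p15) was close to the level of an absent RNA on nearly all arrays. Its probe set (1369193_at) read 38.7, 12.3 and 10.3 on adult valve, 6.61, 45.2 and 18.4 on neonatal valve, 83.3, 16.4 and 53.8 on adult aorta and 10.4, 7.80 and 6.46 on neonatal aorta arrays. A single adult aorta array, the one with the skeletal muscle and squamous signals, exceeded 54.6, and the probe set was too dim to be tested. No fold is given for it.

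Cdkn2c (p18), which restrains Cdk4 and Cdk6 in differentiating cells, was measured by 2 probe sets that did not move together (Pearson r -0.34 over 12 arrays, as a description). The brighter one (1370054_at) read 793, 1029 and 1350 on adult valve arrays and 1281, 916 and 893 on neonatal valve arrays. On adult aorta arrays it read 1103, 1123 and 504, and on neonatal aorta arrays 917, 838 and 1082. The groups overlapped in every comparison. The age difference was 0.02 in valve (unadjusted 95% interval -0.69 to 0.74) and -0.14 in aorta (-0.85 to 0.57), which bounds any change to less than 2-fold in each tissue by that interval.

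The dimmer Cdkn2c probe set (1378711_x_at) read 80.9, 108 and 82.1 on adult valve, 75.1, 84.0 and 67.0 on neonatal valve, 174, 181 and 216 on adult aorta and 111, 93.8 and 114 on neonatal aorta arrays. Adult aorta was above each of the other groups with no overlap. Adult valve was 2.12-fold below adult aorta (log2 difference -1.08 ± 0.30, adjusted p = 0.015), a call lost after quantile normalization (-0.62) and on arrays of the 2 groups only. The probe set passed the filter only through the adult aorta arrays, so that call is given as a description. The aorta age difference of 0.84 ± 0.30 did not pass (adjusted p = 0.11), and it passed after quantile normalization (1.25, adjusted p = 0.025). The suffix of the name marks a probe set that can bind other transcripts, and the brighter probe set gave a difference of 0.27 between adult tissues (adjusted p = 0.53), so a change of Cdkn2c itself is uncertain.

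Of the Cip/Kip inhibitors, Cdkn1a (p21) was higher on every adult valve array than on any neonatal one, without passing the test. Its bright probe set (1388674_at) read 1067, 1065 and 1311 on adult valve arrays and 297, 470 and 350 on neonatal valve arrays, a ratio of 3.12 (log2 difference 1.64 ± 0.47, adjusted p = 0.053). It read 1859, 678 and 596 on adult aorta arrays and 256, 787 and 313 on neonatal aorta arrays, where the groups overlapped (1.19 ± 0.47, adjusted p = 0.15). The highest adult aorta value belonged to adult aorta 1, and without it the aorta difference was 0.68. The highest newborn aorta value belonged to neonatal aorta 2, and without that array the difference was 1.68. The valve difference passed in 6 of 19 alternatives, one of them without adult aorta 1 (adjusted p = 0.014), and its size ran from 1.49 to 1.82 over all of them. At each age, valve and aorta differed by less than the spread (0.33 in adults, -0.12 in newborns). The dim Cdkn1a probe set (1387391_at) was not tested and read 5.88 to 59.7 on adult valve, 1.58 to 15.1 on neonatal valve, 34.6 to 580 on adult aorta and 2.64 to 148 on neonatal aorta arrays.

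Cdkn1b (p27), an inhibitor of cyclin E and cyclin A complexes that is regulated to a large part through protein decay, had no difference that passed. Its bright probe set (1373812_at) read 5346, 3978 and 4578 on adult valve arrays and 5174, 3777 and 5341 on neonatal valve arrays. It read 3754, 2917 and 3222 on adult aorta arrays and 4298, 3784 and 5825 on neonatal aorta arrays. The age difference was -0.03 in valve (unadjusted 95% interval -0.52 to 0.45) and -0.47 in aorta (-0.96 to 0.01), where adult and neonatal arrays did not overlap. This probe set had adjusted p = 0.22 for aorta by age and adjusted p = 0.10 between adult tissues (0.49 ± 0.22). Adult valve and adult aorta arrays did not overlap either (unadjusted 95% interval 0.01 to 0.97). The dim Cdkn1b probe set (1369192_at) was not tested and read 65.1 to 139 on adult valve, 47.1 to 68.7 on neonatal valve, 82.6 to 105 on adult aorta and 29.8 to 97.7 on neonatal aorta arrays.

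The D cyclins did not move as one. Ccnd3, the D cyclin of blood cells and skeletal muscle among other tissues, was lower in the adult, Ccnd2 leaned the same way without passing, and Ccnd1 differed between adult valve and adult aorta. Levels of different probe sets are not compared here.

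Ccnd3 (1369935_at) read 701, 886 and 583 on adult valve arrays, against 1136, 1449 and 2880 on neonatal valve arrays. In the aorta it read 602, 1328 and 1372 in the adult and 2463, 3086 and 2872 in the newborn. Adult and neonatal arrays did not overlap in either tissue. Ccnd3 fell 2.71-fold in adult aorta (log2 difference -1.44 ± 0.38, adjusted p = 0.045). In adult valve it was 2.36-fold lower (-1.24 ± 0.38), which did not pass (adjusted p = 0.066). The aorta call was close to the threshold and was lost in 12 of 20 alternatives. It was lost without adult aorta 1 (-1.05, adjusted p = 0.068), without each neonatal aorta array in turn and with the missing control RNA as a block (adjusted p = 0.45), and the difference stayed negative in all 20 (-1.64 to -1.05).

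The neonatal valve array with the highest Ccnd3 value, array 3, is also the one with the highest thymocyte signals described with Myb. Without it the valve age difference of Ccnd3 was -0.85 (adjusted p = 0.19), and with both that array and adult aorta 1 left out the difference passed in valve (-0.85, adjusted p = 0.039) and in aorta (-1.05, adjusted p = 0.017). Neonatal valve then stood below neonatal aorta too (-1.12, adjusted p = 0.0053), against -0.73 (adjusted p = 0.16) on all arrays. Leaving out both arrays was chosen after the data were seen.

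Ccnd2, a D cyclin of growing mesenchymal and blood cells, read 2171, 1845 and 1488 on adult valve arrays and 2293, 2480 and 2621 on neonatal valve arrays (1370810_at). On adult aorta arrays it read 1126, 1408 and 3745, and on neonatal aorta arrays 3683, 3238 and 2462. The valve groups did not overlap, though the difference was small (-0.44, adjusted p = 0.50). Adult aorta 3 held the highest value of all 12 arrays, while the other 2 adult arrays lay below every neonatal aorta array. The aorta difference was -0.77 ± 0.38 (adjusted p = 0.25), and without adult aorta 3 it was -1.29 (adjusted p = 0.014).

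Ccnd1, the D cyclin most tied to growth factor signals, had 3 probe sets. The brightest (1371643_at) read 1080, 2139 and 2947 on adult valve, 1321, 1758 and 1512 on neonatal valve, 793, 581 and 568 on adult aorta and 1063, 912 and 976 on neonatal aorta arrays. A second (1383075_at) read 510, 1145 and 992 on adult valve, 664, 828 and 660 on neonatal valve, 579, 374 and 217 on adult aorta and 954, 872 and 662 on neonatal aorta arrays. The third (1371150_at) read 282, 714 and 716 on adult valve, 397, 401 and 443 on neonatal valve, 454, 485 and 330 on adult aorta and 368, 472 and 350 on neonatal aorta arrays. On the first of these probe sets every adult valve array lay above every adult aorta array, and on the others adult valve 1 lay within or below the adult aorta range.

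Adult valve was 2.96-fold above adult aorta on the brightest Ccnd1 probe set (log2 difference 1.57 ± 0.32, adjusted p = 0.0033), a call kept in all 19 alternatives (1.25 to 1.97). On the second it was 2.31-fold higher (1.21 ± 0.38, adjusted p = 0.027), a call lost in 5 alternatives, among them those without adult aorta 2 or 3 and those without adult valve 2 or 3 (0.84 to 1.56). The third gave 0.33 ± 0.34 (adjusted p = 0.47, unadjusted 95% interval -0.41 to 1.07), so the probe sets of this gene disagree on the size. In newborns the brightest probe set differed between valve and aorta by 0.63 (adjusted p = 0.15) with no overlap of the arrays. How far the different 3′ to 5′ ratios of valve and aorta arrays enter these values was not tested.

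With age, no Ccnd1 probe set passed. In valve the differences were 0.32, 0.23 and 0.35 in the order above, and in aorta -0.62, -1.18 and 0.08. Adult and neonatal aorta arrays did not overlap for the first 2 of these probe sets, and the second had an adjusted p = 0.082 (95% unadjusted interval -2.01 to -0.36). Without adult aorta 1 that difference was -1.53 and passed (adjusted p = 0.021). Subtracting the aorta age difference from the valve one gave 0.94, 1.41 and 0.26, and none of these passed (adjusted p = 0.45, 0.34 and 0.87).

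**Figure D2:**
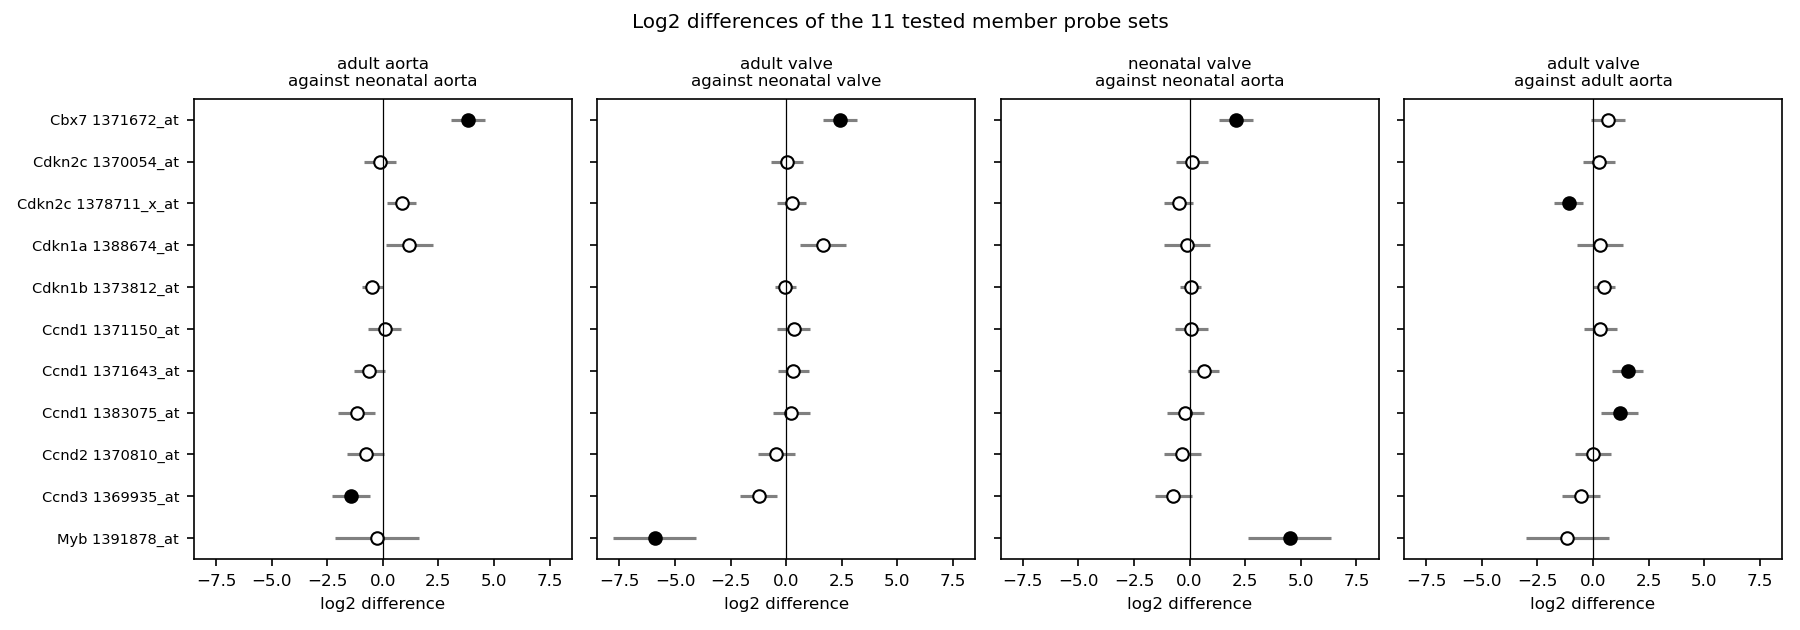
Log2 differences of the 11 probe sets tested (x axis) with unadjusted 95% intervals as lines, 1 panel per comparison. Filled points passed at an adjusted p under 0.05 in limma: Cbx7 and Ccnd3 for aorta by age, Cbx7 and Myb for valve by age and between newborn tissues, and 2 probe sets of Ccnd1 and 1 of Cdkn2c between adult tissues.

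Myb was above the level of an absent RNA only on neonatal valve arrays. Its probe set (1391878_at) read 323, 544 and 4494 there, against 11.2, 12.1 and 26.4 on adult valve arrays. On adult aorta arrays it read 31.8, 25.5 and 48.2, and on neonatal aorta arrays 51.1, 48.3 and 27.9. All 9 of these other arrays lay below 54.6, and each neonatal valve array lay above them. Taking 54.6 as the floor, Myb was at least 16.9-fold lower in adult valve than in neonatal valve. By the same floor it was at least 16.9-fold higher in neonatal valve than in neonatal aorta. The limma fit, made without that floor, gave log2 differences of -5.92 (adjusted p = 0.0027) and 4.49 (adjusted p = 0.0028). Because the probe set was tested only through its high neonatal valve arrays, these p-values are printed as a description and add no support. The bound was 7.67-fold without neonatal valve 3. With the missing control RNA as a block the newborn tissue call was lost (adjusted p = 0.074). The fitted difference between age differences, -5.64 ± 1.21, did not pass (adjusted p = 0.11).

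Myb is abundant in thymocytes, and the thymus lies against the great vessels of the newborn. Of 15 thymocyte genes listed, 10 had a probe set. Their summed signal ran from 878 to 2067 on adult valve, 871 to 49028 on neonatal valve, 1174 to 1600 on adult aorta and 1023 to 1122 on neonatal aorta arrays. The highest sum belonged to neonatal valve 3, which also had the highest Myb. There Lck, the kinase of the T cell receptor, read 12436 and the receptor chain gene Cd3g 8978. Neonatal valve 1 had 1024 for Lck, 1041 for Cd3g and 497 for Cd3d.

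On neonatal valve 2, where Myb read 544, the median of the list was no higher than on other arrays. This median log2 signal was 5.86 there, against 8.37 and 11.8 on neonatal valve 1 and 3 and 5.99 to 7.05 on all other arrays. Of the 10 genes, 3 were at the level of an absent RNA on that array: Cd3e (4.92), Cd3d (15.3) and Cd8b (16.8). Just above it were Zap70 (55.6), Cd3g (56.9), Cd8a (59.0) and Cd4 (67.5). Lck (215), Tcf7 (224) and Lef1 (156) were above that level there, as on every other array, and Tcf7 was higher than on any aorta array. The part of thymocytes in the Myb values was not tested.

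**Figure D3:**
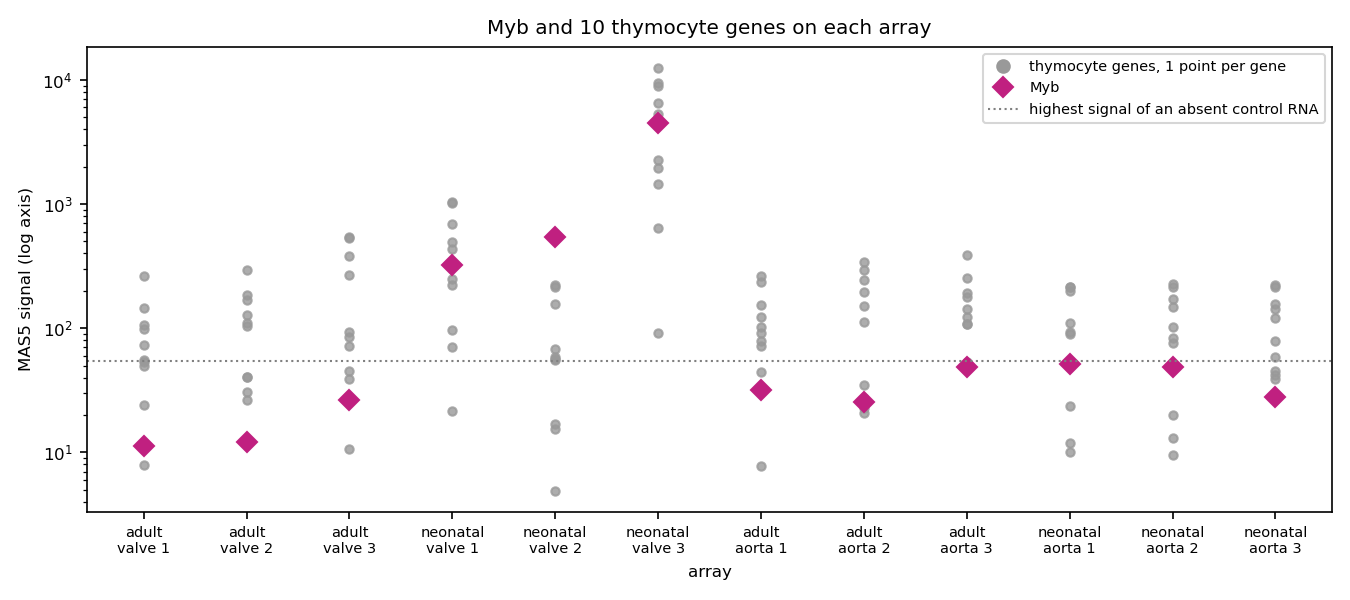
Signals (log axis) of Myb, as diamonds, and of 10 thymocyte genes, as grey points, on each of the 12 arrays, with a dotted line at 54.6. On neonatal valve 2 Myb reads 544. There Cd3e, Cd3d and Cd8b lie below the line and the other thymocyte genes above it, up to 224 for Tcf7. On neonatal valve 3 both Myb and most of the thymocyte genes are high.

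Around these genes, the kinases and cyclin E that act after the D cyclins were lower in the adult. Lists were compared with the same fit, with 1 probe set per gene. Of 9 genes of the G1 kinase and cyclin E list, 7 were tested, and 5 fell and 0 rose in each tissue, with a median log2 difference of -1.44 in valve and -1.67 in aorta. The medians over all genes were -0.05 and -0.11. Over all probe sets tested, 5.21% were called lower and 4.00% higher in valve, and 5.39% lower and 1.94% higher in aorta. Ccne2, a cyclin E, fell in both (log2 difference -3.33 in valve and -3.35 in aorta). Ccne1, the other cyclin E, fell as well (-3.37 in valve, adjusted p = 0.0025, and -3.76 in aorta, adjusted p = 0.0015). Its adult geometric means, 29.1 in valve and 25.6 in aorta, lay below 54.6, the level of an absent RNA. The sizes of its falls are therefore uncertain. Cks1b, which helps the ligase that destroys Cdkn1b, fell too (-1.65 in valve and -1.86 in aorta). Cdk4, the partner of the D cyclins, fell in both (-1.44 in valve and -1.39 in aorta). Cdk2, the partner of cyclin E, did so too (-1.38 in valve and -1.67 in aorta).

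The list of retinoblastoma proteins, E2F factors and DREAM subunits was mixed. Of 19 tested, 2 rose and 6 fell in adult valve, and 1 rose and 7 fell in adult aorta. Over all probe sets 4.00% were called higher and 5.21% lower in valve, and 1.94% higher and 5.39% lower in aorta. Among those that fell were E2f8 (-3.53 in valve and -2.04 in aorta), E2f1 (-1.83 and -1.58) and Rbl1, the p107 protein (-2.05 and -2.54). Foxm1, a driver of mitotic genes, fell by 3.16 in aorta. The geometric means of E2f8 in adult valve (41.7) and Foxm1 in adult aorta (34.0) lay below 54.6. The sizes of these falls are therefore uncertain. The genes that rose were Rb1 in adult aorta (1.53 ± 0.34, adjusted p = 0.023), and Lin52 (1.28) and Rbl2, the p130 protein of resting cells (1.25, adjusted p = 0.031), in adult valve, all of which were chosen after their values were seen. The Rb1 call was lost with the control RNA block and without either of neonatal aorta 2 and 3 or adult aorta 2 and 3.

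Of the other CDK inhibitors, 2 of 3 were tested. Cdkn1c (p57), an imprinted inhibitor of fetal growth, fell in adult aorta (log2 difference -3.32 ± 0.47, adjusted p = 0.0025), and Cdkn2d (p19) fell by 1.02 in adult valve (adjusted p = 0.036), a call lost in 11 of 19 alternatives. As given above, over all probe sets 4.00% were called higher and 5.21% lower in valve, and 1.94% higher and 5.39% lower in aorta, and counts of 1 or 2 genes in the lists that follow are not read as a result about a list. In the p53 and BTG/TOB list of 16 tested genes, 0 passed in valve. In aorta Plk3 rose (1.28, a call lost in 7 of 20 alternatives) and Plk2 fell (-1.75, lost in 13 of 20), and the list medians were 0.07 in valve and 0.04 in aorta. In the Polycomb list, to which Cbx7 belongs by function, 1 of 12 tested genes rose and 2 fell in each tissue. Ezh1, the methyltransferase of resting cells, rose by 1.53 in valve and 1.01 in aorta, and Ezh2, that of dividing cells, fell (-2.21 and -2.12). Rnf2, the ubiquitin ligase of the same complex as Cbx7, fell (-0.86 in valve, a call lost in 12 of 19 alternatives, and -1.04 in aorta, lost in 7 of 20).

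In the list of growth and quiescence regulators, 2 of 12 rose in adult valve, Klf2 (1.73), a factor of resting endothelium, and Foxo4 (1.17), and 1 rose in adult aorta, Foxo4 (1.12), while 0 fell. In the list of dividing cells 11 of 12 genes fell in adult valve and 10 in adult aorta, with medians of -3.21 and -2.68. Mcm6, of the replicative helicase, had -2.53 in valve and -2.77 in aorta, and Cdk1, the kinase of mitosis, had -4.36 and -3.39. The summed signal of this list ran from 4127 to 7870 on adult valve, 21635 to 31062 on neonatal valve, 3470 to 7736 on adult aorta and 20363 to 22273 on neonatal aorta arrays. The Cbx7 and Ccnd3 age differences thus ran beside a fall of the genes of dividing cells in both tissues, and its part in them was not tested.

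The list counts in the aorta rest on few arrays. On leaving out 1 array the falls in aorta stayed at 5 for the G1 kinase list and ran from 1 to 8 for the retinoblastoma list and from 4 to 12 for dividing cells, with the low counts without one of the neonatal aorta arrays or adult aorta 2. With the control RNA block, which leaves neonatal aorta 1 as the newborn, these falls numbered 2, 0 and 1. In the valve the same counts ran from 5 to 6, from 3 to 8 and from 8 to 12 on leaving out 1 array, with 3 in the retinoblastoma list without neonatal valve 1, neonatal valve 3 or adult valve 1. The valve calls of Ccne1, Ccne2, Cks1b, Cdk4, E2f1, E2f8, Ezh1, Ezh2, Mcm6 and Cdk1 held in all 19 alternatives, as did the aorta calls of Ccne2, Cks1b and Mcm6 in all 20. The aorta calls of Ccne1, Cdk2, Cdk4, Rbl1, Cdkn1c, Ezh2 and Cdk1 were lost with the control RNA block only. The other list genes named by age lost their call without at least 1 array. In both tissues the geometric means of Ccne1, Ccne2, E2f1, E2f8 and Foxm1 passed the signal of the brightness filter in the newborn only. Plk3 passed it in adult aorta only. These genes may thus have been tested only through groups where they are high. As with Myb, their calls are a description that adds no support, and the list counts include such genes.

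**Figure D4:**
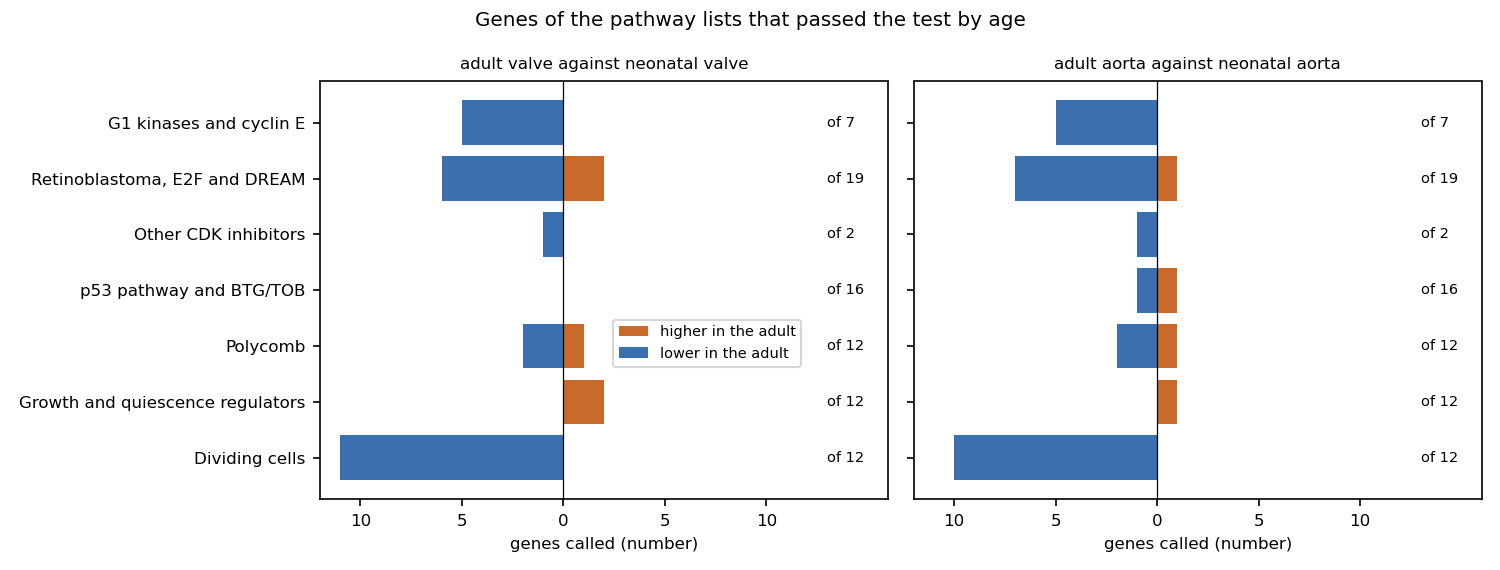
Number of genes of each list that passed the test by age (x axis), lower in the adult to the left and higher to the right, with the number tested at the right edge, for valve and aorta. Dividing cells (11 of 12 lower in valve, 10 in aorta) and G1 kinases with cyclin E (5 of 7 lower in each) hold most of the falls relative to their size. Over all probe sets tested, 5.21% were called lower in valve and 5.39% in aorta.

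Between tissues the same lists gave fewer one-sided counts. In neonatal valve against neonatal aorta, 0 genes of the G1 kinase list were higher and 2 lower, 5 of the retinoblastoma list were higher and 1 lower, and 0 of the list of dividing cells were called either way. In adult valve against adult aorta these counts were 0 and 2, 4 and 1, and 1 and 2. Of the other CDK inhibitors 0 were higher and 1 lower in newborns, and 1 higher and 1 lower in adults. The p53 list had 1 higher and 0 lower in newborns and 0 higher and 2 lower in adults, the Polycomb list 3 and 2 in newborns and 5 and 2 in adults, and the growth list 1 and 3 in newborns and 3 and 2 in adults. More than 30% of all probe sets were called in each of these comparisons, as given above.

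The levels of other cell type lists varied between groups, and for some lists within a group. Genes of the smooth muscle, adipocyte, red blood cell, thymocyte and squamous epithelium lists were not called by age in either tissue. Of 11 cardiac muscle genes tested, 7 were lower in adult aorta and 2 lower in adult valve. Of 8 macrophage genes, 1 was lower in adult aorta and 2 higher in adult valve. Of 7 endothelial genes, 1 was lower in adult aorta and 1 higher in adult valve. In adult valve 2 of 5 valve interstitium genes were higher and 1 of 8 skeletal muscle genes was lower. The shares over all probe sets are given above. Median log2 signals of the cardiac muscle list were 8.20 to 13.02 on adult valve, 13.27 to 13.51 on neonatal valve, 5.05 to 6.39 on adult aorta and 11.16 to 12.70 on neonatal aorta arrays. Those of smooth muscle were 7.22 to 12.16, 10.31 to 10.77, 11.44 to 13.46 and 10.96 to 11.55 in the same order of groups. Valve interstitium genes had 10.85 to 12.47, 8.86 to 10.29, 9.24 to 12.20 and 9.45 to 9.68, and endothelial genes 10.16 to 11.01, 9.94 to 10.18, 9.12 to 10.11 and 10.70 to 10.88. Adipocyte genes had 6.12 to 7.96, 4.94 to 5.14, 8.26 to 13.15 and 9.64 to 12.41, so their level varied within the aorta groups. Red blood cell genes had 5.94 to 12.93, 8.31 to 9.15, 5.64 to 7.58 and 8.47 to 9.92, and macrophage genes 9.37 to 10.54, 7.69 to 8.95, 8.69 to 10.04 and 9.90 to 10.58. Genes of smooth muscle, endothelium and valve interstitium were thus measured in all 4 groups, and the part of these cell types in the differences of the cell cycle genes was not tested.

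The genes whose log2 signals were most like each of these genes over the 12 arrays are given as a description, since all arrays of a group share age and tissue. Npas2, of the circadian clock, was closest to Cbx7 (Pearson r 0.957), followed by Tacc2 (0.945) and Atf3 (0.940). Those closest to Ccnd3 were Dact1 (0.952), Kif2a (0.947) and Slc35b4 (0.937), and those closest to Myb were Cit (0.934), Fam78a (0.907) and Palb2 (0.898). Snx5 (0.969), Ifitm1 (0.968) and Zfp462 (0.958) were closest to the brightest Ccnd1 probe set. For Ccnd2 they were Copb1 (0.895), P3h4 (0.895) and Hmgn1 (0.892), and for Cdkn1a they were Zbtb7a (0.931), Cyb561 (0.912) and Aldh3a1 (0.906). The closest genes were less alike for Cdkn2c, with Sox7 (0.884), Plxna2 (0.871) and Card10 (0.869), and for Cdkn1b, with Brat1 (0.849), Slc25a17 (0.835) and P3h4 (0.828).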

How the data were processed

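RNA of 12 samples was measured on Affymetrix arrays, 3 per group. The deposited values are intensity values, 1 linear signal per probe set, made by the authors with MAS5 in Affymetrix Expression Console, per the submitters' processing notes. For program versions and scaling target, the sources used here give nothing. The mean of each array after trimming 2% at each end was 500.1 to 500.2, and array medians were 133 to 169 on valve and 182 to 202 on aorta arrays. Detection calls were not used here.

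Of 31099 probe sets, 57 controls were left out. The array annotation gave 20826 probe sets 1 symbol (20764 of these matched RefSeq by gene ID), while 436 had several and 9780 had none. After setting signals under 1 to 1, log2 values were used without further normalization. Probe sets above 172, the median of all values, on at least 3 arrays were tested, 18532 in all. The linear model held 1 mean for each group over all 12 arrays, in limma 3.58.1 (R 4.3.3, eBayes with trend, 8 residual degrees of freedom), two-sided, with Benjamini-Hochberg adjustment over all tested probe sets and a threshold of 0.05. Intervals are unadjusted. The fit was tested on simulated data. Arrays, 3 per group, limit the precision.

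The genes and lists were chosen with earlier results of these data known. Every probe set found for the 10 genes is given. For the brightest tested probe set of each gene the 3 most correlated genes are named. The rule for list genes allowed up to 4 called genes per list and comparison by smallest adjusted p. From these a selection is printed, made with their values in view, and Rb1, Lin52 and Rbl2 were named outside the rule. Alternatives were no filter, log2(signal + 32), quantile normalization, array median centring, a replicate block, a control RNA block, arrays of the 2 groups only and leaving out each array.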

Additional observations from a re-analysis of the deposited data

How the results depend on the processing

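The alternatives gave 1067 values for the genes followed, of which 1029 kept their side of the threshold, 20 lost a call and 18 gained one. Among values called in the main fit or the alternative, 0 reversed direction. Uncalled values could change sign, as the brighter Cdkn2c probe set did in aorta by age (-0.34 to 0.24). In aorta by age, 1358 probe sets were called, against 69 with the control RNA block and 811 on arrays of the 2 groups only. Leaving out 1 array gave 431 to 2485, and without both adult aorta 1 and neonatal valve 3 there were 2482. Of the 2 calls among the genes followed there, 1 was left with no filter, with array medians centred, with the control RNA block and on the 2 groups only, and 1 to 3 on leaving out an array. In valve by age, 1708 were called, 661 to 3082 on leaving out an array, and of the genes followed 2 to 4, or 4 without both named arrays. In neonatal valve against neonatal aorta, 6038 were called and 1415 with the control RNA block (1 of the 2 calls left), and 4099 to 7381 without 1 array. In adult valve against adult aorta, 6888 were called and 3642 on the 2 groups only (1 of 3 left). The difference between age differences had 11 calls, 1 with the replicate block, 1 with the control RNA block, 5 without both arrays and 1 to 37 on leaving out an array. The control RNA block leaves 1 neonatal aorta array, and the 2-group fits have fewer samples to estimate the spread. Otherwise the cause was not tested.

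The shared replicate numbers gave no sign of pairing: of 18 pairs with the same number the correlations of deviations ran from -0.31 to 0.24, 3 were above 0.1, and 3 of 12 arrays were closest to their own number. With the replicate block 1127 probe sets were called in aorta by age. In that comparison 360 were higher and 998 lower, against 857 and 1092 after quantile normalization and 487 and 705 with centred medians. In newborn tissues 2460 were higher and 3578 lower, against 3191 and 3072 after quantile normalization. The median of all differences by age in aorta was -0.08, and 0.05 with centred medians. In newborn tissues it was -0.09, and 0.05 after quantile normalization. Of 30 list gene calls by age in aorta, 27 were lost with the control RNA block.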
